A study of Mus musculus with 3 samples.

Results

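Endothelial-like nuclei are the nuclei of the mouse lacrimal gland that carry transcripts of blood vessel lining. They were chosen by measured values: a kept barcode needed at least 3 UMIs (unique molecular identifiers, each standing for 1 captured transcript) over Pecam1, Cdh5, Flt1, Kdr, Emcn, Ptprb, Cyyr1, Adgrl4, Tek and Shank3, from at least 2 of these genes and making up at least 0.1% of its UMIs. It also could have at most 0.1% of its UMIs from Lama2, Trp63, Skap1, F13a1, Mrc1 and Adgre1, which mark fibroblasts, basal epithelium, lymphocytes and macrophages. The rule found 301 nuclei among 29220 kept barcodes. There were 125 members among 12020 tamsulosin nuclei, 130 among 10006 scopolamine nuclei and 46 among 7194 control nuclei.

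The study profiled lacrimal gland nuclei by droplet sequencing (10x Genomics) in 3 libraries, 1 per group. The tamsulosin library came from mice with dry eye, made by scopolamine and dry stress, that also received tamsulosin. The scopolamine library came from mice with the same dry eye and no tamsulosin, and the control library from normal mice. Scopolamine is an antagonist of muscarinic acetylcholine receptors, and tamsulosin is one of alpha-1 adrenergic receptors. Both dry eye groups share the scopolamine and the dry stress. The comparison of scopolamine with control addresses the dry eye model, and that of tamsulosin with scopolamine addresses the drug. The strain, age and sex of the mice, the doses, the hour of collection and the number of glands per library are not given in the sources used here, so each group is 1 sample. The protocol text speaks of a sort of red fluorescent nuclei for several methods, and whether it applies to these libraries was not settled. A single library stands for each group, so groups are compared without a test, and every interval below covers counting error only.

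Endothelial cells line blood and lymph vessels. In a tear gland the capillary bed around the acini supplies the water and nutrients that secretion draws on, while postcapillary venules are the vessels where leukocytes attach and leave the blood. Arterial, capillary and venous endothelium share a core of junction proteins, growth factor receptors and ETS-family transcription factors, and differ in transporters, adhesion molecules and matrix.

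The members held 427626 UMIs in the tamsulosin library, 422060 in the scopolamine library and 203538 in the control library, with medians of 2592 (tamsulosin), 2486.5 (scopolamine) and 2788 (control) UMIs per nucleus. In all kept nuclei these medians were 3355 (tamsulosin), 1740 (scopolamine) and 2325.5 (control). Secretory transcripts of the epithelium, such as Mucl2 and Scgb2b2, made up 26.5% of member UMIs in the tamsulosin library, 18.1% in the scopolamine library and 8.81% in the control library. In all other nuclei they made up 33.3% (tamsulosin), 26.9% (scopolamine) and 6.68% (control), so secretory RNA differed between libraries in endothelial-like nuclei and in the rest alike, and its part in the results below was not tested. The acinar markers as a group were present in all other nuclei at 6.57% (tamsulosin), 5.31% (scopolamine) and 1.72% (control) of UMIs, with none of the 12 at 0, as the labelled tissue requires. In members they stood at 5.39% (tamsulosin), 3.72% (scopolamine) and 1.98% (control). Libraries shared 35 kept barcode sequences between tamsulosin and scopolamine, 29 between tamsulosin and control and 22 between scopolamine and control, with 0 of these among the members.

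The label was set beside lists of marker genes. Of 38 endothelial markers outside the rule, which include the given marker Abcg2, 36 were higher in members than in all other kept nuclei of the same library in 3 of 3 libraries, as were 17 of 18 arterial, 15 of 18 venous and 12 of 18 capillary markers. The same held for 0 of 12 acinar and 0 of 11 duct markers and for 3 of 15 mural markers. The macrophage, T or NK, fibroblast and myoepithelial lists hold genes that the rule limits, so their low levels in members follow in part from the rule and are no check of the label. Of the 12 lymphatic markers, 3 were higher, and the lymphatic master regulator Prox1 had 0 (tamsulosin), 4 (scopolamine) and 2 (control) UMIs. The capillary genes Car4 and Gpihbp1, which coat the capillary wall in other organs, had at most 2 UMIs in any library. The mural gene Rgs5, a pericyte marker, had 0 (tamsulosin), 1 (scopolamine) and 12 (control) UMIs. Kcnj8, Des, Higd1b, Cox4i2 and Ndufa4l2, further mural genes, had 0 UMIs in members of all 3 libraries. Mural markers together made up 0.0147% (tamsulosin), 0.0149% (scopolamine) and 0.0246% (control) of member UMIs. Arterial, venous and capillary markers were thus more often higher in members than lymphatic ones, counted over all members.

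The genes of the rule describe the members by construction. Flt1, the VEGF receptor that binds VEGF tightly and signals weakly, was at 1200 (tamsulosin), 1059 (scopolamine) and 1159 (control) CPM, that is UMIs per 1000000 UMIs summed over the members. Cyyr1, whose product is little known, was at 830 (tamsulosin), 886 (scopolamine) and 742 (control) CPM. Emcn, a sialomucin of capillaries and veins, was at 573 (tamsulosin), 493 (scopolamine) and 359 (control) CPM. Ptprb, the phosphatase that restrains the angiopoietin receptor, was at 419 (tamsulosin), 787 (scopolamine) and 531 (control) CPM. Cdh5, the adhesion molecule of endothelial junctions, was at 84.2 (tamsulosin), 94.8 (scopolamine) and 88.4 (control) CPM. Members had UMIs of a median of 5 (tamsulosin), 6 (scopolamine) and 6 (control) of the 10 genes.

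The genes outside the rule were ordered by the lowest of their 3 log2 ratios over all other nuclei, taken with the added CPM. The first in that order was Abcg2, a drug efflux pump of capillary and barrier endothelium. Abcg2 was at 449 (tamsulosin), 535 (scopolamine) and 393 (control) CPM in members. In all other nuclei it was at 2.48 (tamsulosin), 6.53 (scopolamine) and 3.78 (control) CPM, and it was seen in 57.6% (tamsulosin), 61.5% (scopolamine) and 69.6% (control) of members. Abcg2 is one of the 6 markers given for this cell type, so its height describes the members and supports nothing. Egfl7, a matrix protein secreted by endothelium, was at 189 (tamsulosin), 199 (scopolamine) and 265 (control) CPM against 0.357 (tamsulosin), 1.21 (scopolamine) and 0.665 (control) in all other nuclei. Egfl7 was thus nearly absent outside the members in each library. Ptprm, an adhesion phosphatase of vessel junctions, was at 1057 (tamsulosin), 1500 (scopolamine) and 1046 (control) CPM and was found in 76.0% (tamsulosin), 90.0% (scopolamine) and 89.1% (control) of members. In all other nuclei Ptprm had a UMI in 6.32% (tamsulosin), 9.82% (scopolamine) and 15.1% (control) of nuclei. Where those UMIs came from was not tested. Other leading genes were Dnm3, Arhgap31, St6galnac3 and the guidance genes Sema6a and Plxna4. Ldb2, a cofactor of LIM and GATA proteins, led against the rest but was at 699 (tamsulosin), 1211 (scopolamine) and 457 (control) CPM in members and at 496 (tamsulosin), 462 (scopolamine) and 579 (control) CPM in fibroblast-marked nuclei. Prex2, another leading gene, was at 496 (tamsulosin), 711 (scopolamine) and 536 (control) CPM in members and at 210 (tamsulosin), 152 (scopolamine) and 459 (control) CPM in fibroblast-marked nuclei.

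**Figure D1:**
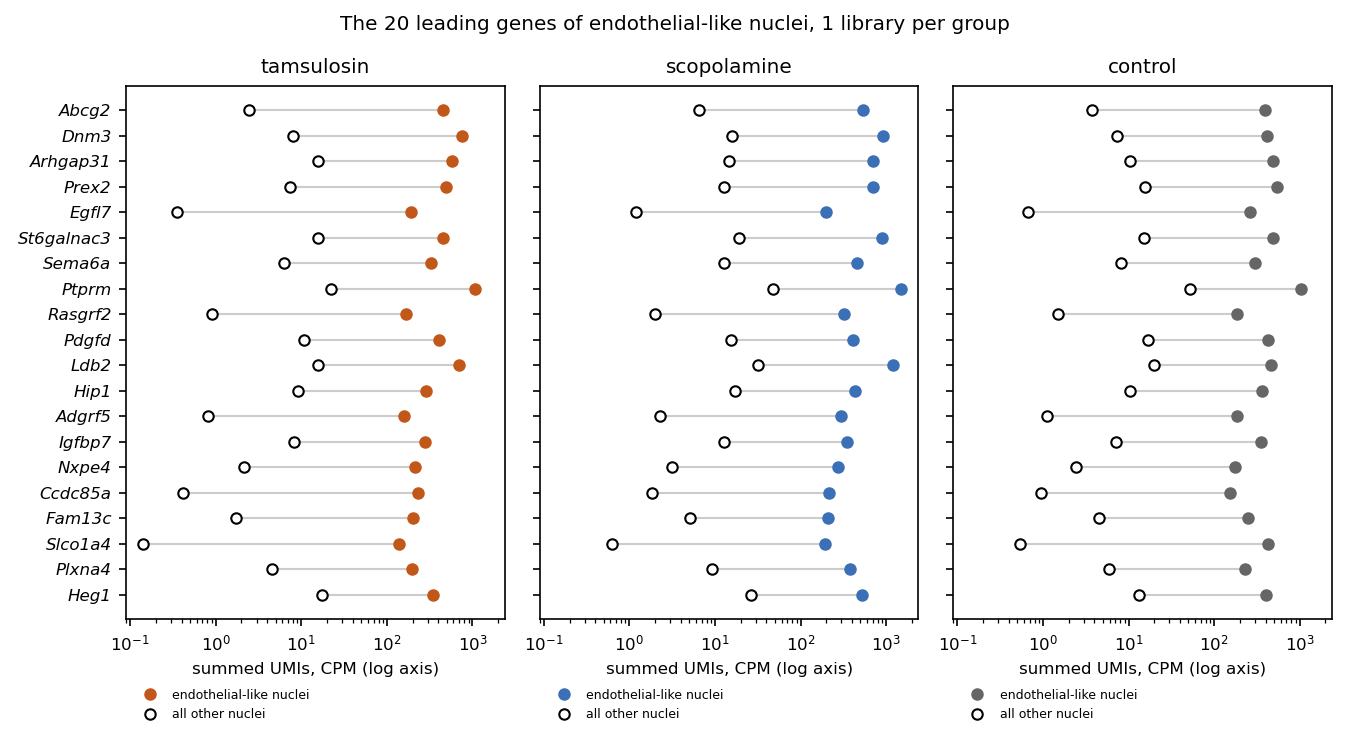
Summed UMIs in CPM (log axis) of the 20 leading genes in endothelial-like nuclei (filled) and in all other kept nuclei (open) of the tamsulosin, scopolamine and control libraries. Every filled point lies to the right of its open point, and Egfl7 and Slco1a4 are the lowest of the open points in the tamsulosin library, at 0.357 and 0.143 CPM.

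The promoters of a pair of leading genes and of the genes that mark vessel subgroups are shown, since these genes carry the identity of the members. Each runs from 250 bases before to 50 bases after the RefSeq start, 5′ to 3′ on the gene's strand, on build GRCm38.p6, the RefSeq name of mm10. Capitals mark AGGAAG, a form of the sequence that ETS-family factors recognise, or its complement CTTCCT.
Abcg2, plus strand, chr6:58584283-58584582: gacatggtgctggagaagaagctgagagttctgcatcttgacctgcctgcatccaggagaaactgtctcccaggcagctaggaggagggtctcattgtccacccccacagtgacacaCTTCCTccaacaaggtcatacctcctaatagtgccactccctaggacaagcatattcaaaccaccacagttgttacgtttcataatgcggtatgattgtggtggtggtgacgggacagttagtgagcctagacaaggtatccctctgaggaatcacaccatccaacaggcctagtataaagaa
Egfl7, plus strand, chr2:26580833-26581132: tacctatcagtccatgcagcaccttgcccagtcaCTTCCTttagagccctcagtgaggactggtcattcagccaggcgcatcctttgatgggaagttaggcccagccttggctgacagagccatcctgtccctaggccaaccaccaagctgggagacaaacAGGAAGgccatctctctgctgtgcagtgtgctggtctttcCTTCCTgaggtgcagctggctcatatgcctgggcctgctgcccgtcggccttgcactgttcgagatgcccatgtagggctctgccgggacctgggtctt
Tll1, minus strand, chr8:64205959-64206258: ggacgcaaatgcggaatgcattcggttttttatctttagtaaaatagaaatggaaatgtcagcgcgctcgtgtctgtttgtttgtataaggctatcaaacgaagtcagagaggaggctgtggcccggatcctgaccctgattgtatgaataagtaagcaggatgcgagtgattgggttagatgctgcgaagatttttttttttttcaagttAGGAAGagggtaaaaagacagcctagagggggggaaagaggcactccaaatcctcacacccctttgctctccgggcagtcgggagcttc
Slco1a4, minus strand, chr6:141856171-141856470: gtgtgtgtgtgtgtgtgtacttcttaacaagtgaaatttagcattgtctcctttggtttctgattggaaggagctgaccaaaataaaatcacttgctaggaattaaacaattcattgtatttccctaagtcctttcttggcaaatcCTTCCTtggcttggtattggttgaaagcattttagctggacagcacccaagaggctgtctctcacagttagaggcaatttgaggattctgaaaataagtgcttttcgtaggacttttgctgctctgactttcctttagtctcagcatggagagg
Both strands were searched. Egfl7 held 1 match in forward and 2 in reverse orientation, and the other genes held 1 match each. Of the 20 leading genes, 15 had a promoter in the table, and 5 of these held the hexamer, against 9498 of 27025 promoters, or 35.1%, when the first promoter of each symbol is taken. The hexamer is thus common, and a match describes the letters of the window and no bound factor.

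The share of endothelial-like nuclei was 1.04% (0.866 to 1.24, exact Clopper-Pearson 95% interval) in the tamsulosin library, 1.30% (1.09 to 1.54) in the scopolamine library and 0.639% (0.469 to 0.852) in the control library. The rule's own genes chose these nuclei, and their levels differ between libraries, so the share is a description. Flt1 was the gene of the rule seen most often outside the members. It had a UMI in 19.1% of the nuclei outside the members in the tamsulosin library, against 5.76% in the scopolamine library and 4.84% in the control library. Without Flt1 in the rule there were 109 (tamsulosin), 123 (scopolamine) and 41 (control) members, or 0.907% (tamsulosin), 1.23% (scopolamine) and 0.570% (control). Near the limits of the rule, 5 (tamsulosin), 12 (scopolamine) and 2 (control) members had exactly 3 UMIs of its genes, while 579 (tamsulosin), 168 (scopolamine) and 83 (control) nuclei just outside had 2. The members' median share of rule UMIs was 0.445% (tamsulosin), 0.491% (scopolamine) and 0.467% (control), the lowest member had 0.108% and the highest nucleus left out for its share had 0.0974%.

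The members were set among all 29220 nuclei by clustering without the 16 genes of the rule. Of 301 members, 231 fell into 1 of 34 clusters, a cluster of 257 nuclei of which 89.9% were members. This main cluster held 90 tamsulosin, 105 scopolamine and 36 control members. Another 23 members, 15 from the tamsulosin, 8 from the scopolamine and 0 from the control library, lay in a cluster led by Ntrk3, Kirrel3 and Fhod3. Counting all barcodes of the main cluster, members or not, gave 0.782% (0.632 to 0.956) in tamsulosin, 1.27% (1.06 to 1.51) in scopolamine and 0.50% (0.351 to 0.692) in control. The 3 shares kept the order scopolamine, tamsulosin, control in the 6 settings plotted. In some of them the intervals of tamsulosin overlapped those of a neighbour, and how far the share reflects the tissue or the recovery of nuclei was not tested.

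**Figure D2:**
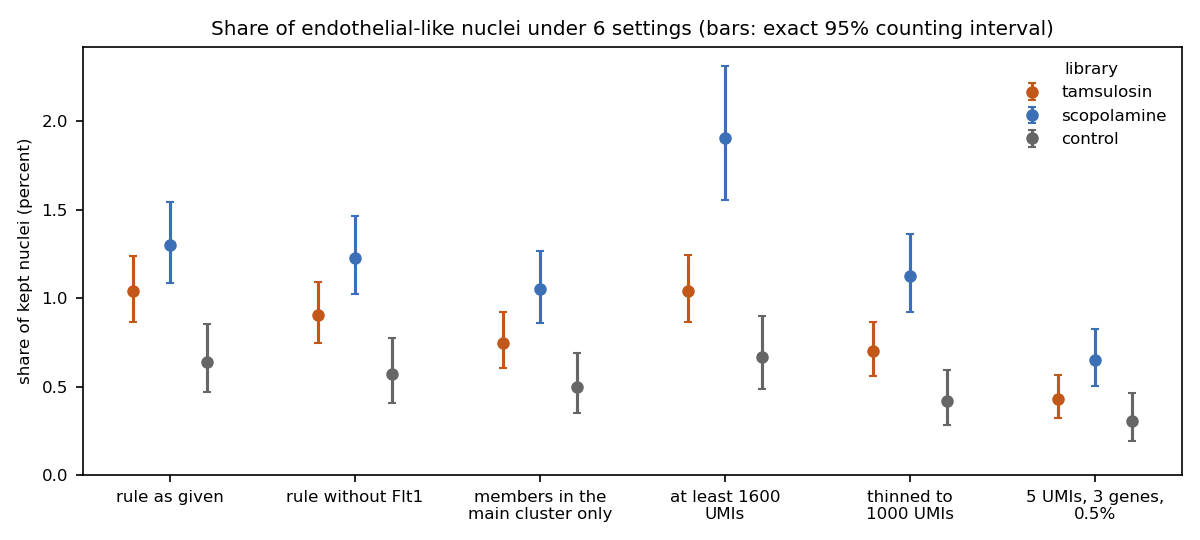
Share of kept nuclei (percent) that are endothelial-like in the tamsulosin, scopolamine and control libraries under 6 settings, with exact 95% counting intervals as bars. Scopolamine is highest and control lowest in each setting, from 1.91% in scopolamine nuclei at 1600 UMIs or more to 0.306% in control nuclei under the strictest rule.

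Clustering of the members alone gave 6 groups, which are descriptions because each was made from the genes that describe it. The first, of 66 nuclei (27 tamsulosin, 31 scopolamine, 8 control), was venous-like: 17 of the 18 venous markers were higher in it than in the other members, and Tll1, Selp and Vwf were among its 10 leading genes. Vwf, the glycoprotein that tethers platelets, was at 697 CPM in this group with the 3 libraries summed, against 60.8 CPM in the Slco1a4 group and 145 CPM in the arterial-like group. Selp, the P-selectin that venules show to leukocytes, had 58 of its 71 UMIs here. Tll1, a secreted protease of the BMP1 family, had 223 of its 314 UMIs here, and Pcdh7, a protocadherin, had 296 of 538.

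The second group, of 63 nuclei (23 tamsulosin, 25 scopolamine, 15 control), was led by Slco1a4, Itih5, Jam3 and Slc39a10 and is called the Slco1a4 group. Slco1a4, an organic anion transporter of brain capillaries, had 170 of its 228 UMIs here. This group also had the highest Flt1 and Kdr, the main VEGF receptors, at 2860 and 254 CPM. Capillary markers made up 0.127% of its UMIs and 0.0700% of those of the other members. In the venous-like group they made up a like 0.129%, against 0.0698% in the other members. Arterial markers stood at 0.127% in the Slco1a4 group against 0.0814% in the other members, with 12 of 18 higher. Mural markers stood at 0.0271% against 0.0146%, with 8 of 15 higher. No capillary marker was among the 10 leading genes of the Slco1a4 group, so it is given no vessel name. The third group, of 33 nuclei (12 tamsulosin, 18 scopolamine, 3 control), was arterial-like, with 16 of 18 arterial markers higher. Slc8a1, the sodium-calcium exchanger, had 110 of its 176 UMIs here and Bmp6, an iron-regulating BMP ligand of endothelium, had 70 of 128. Sema3g and Jag1, a semaphorin and a Notch ligand of arteries, were at 279 and 376 CPM in it, against 0 and 39.3 CPM in the venous-like group. All nuclei of these 3 groups lay in the main cluster of the clustering of all nuclei.

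The other 139 members were less clear. A group of 70 was shallow, with a median of 1821.5 UMIs and 6.96% of its UMIs from acinar markers, against 3.53% in the other members. Groups of 36 and 33 were deep, with medians of 5644.5 and 4962 UMIs. They held 24.8% and 17.9% of all member UMIs, so they weigh heavily in the summed levels below. The 6 given endothelial markers made up 0.174% and 0.144% of their UMIs, against 0.385% and 0.374% in the other members. Of the group of 36, 21 nuclei lay in the main cluster. The group of 33, of 22 tamsulosin, 9 scopolamine and 2 control nuclei, carried duct markers at 0.552% of its UMIs against 0.103% in the other members, and 0 of its 33 nuclei lay in the main cluster. It also carried myoepithelial markers at 0.101% against 0.0130% in the other members, with 9 of 10 higher, and mural markers at 0.0457% against 0.0104%, with 6 of 15 higher. It is called the deep group with duct and myoepithelial markers. No doublet caller was run, and whether these nuclei are endothelium joined with another nucleus was not tested. Results below are therefore given for all members and, where it matters, for the 231 members of the main cluster. At least 2 UMIs summed over the lymphatic genes Prox1, Mmrn1, Reln, Flt4, Lyve1 and Ccl21a were found in 1 tamsulosin, 4 scopolamine and 3 control members.

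**Figure D3:**
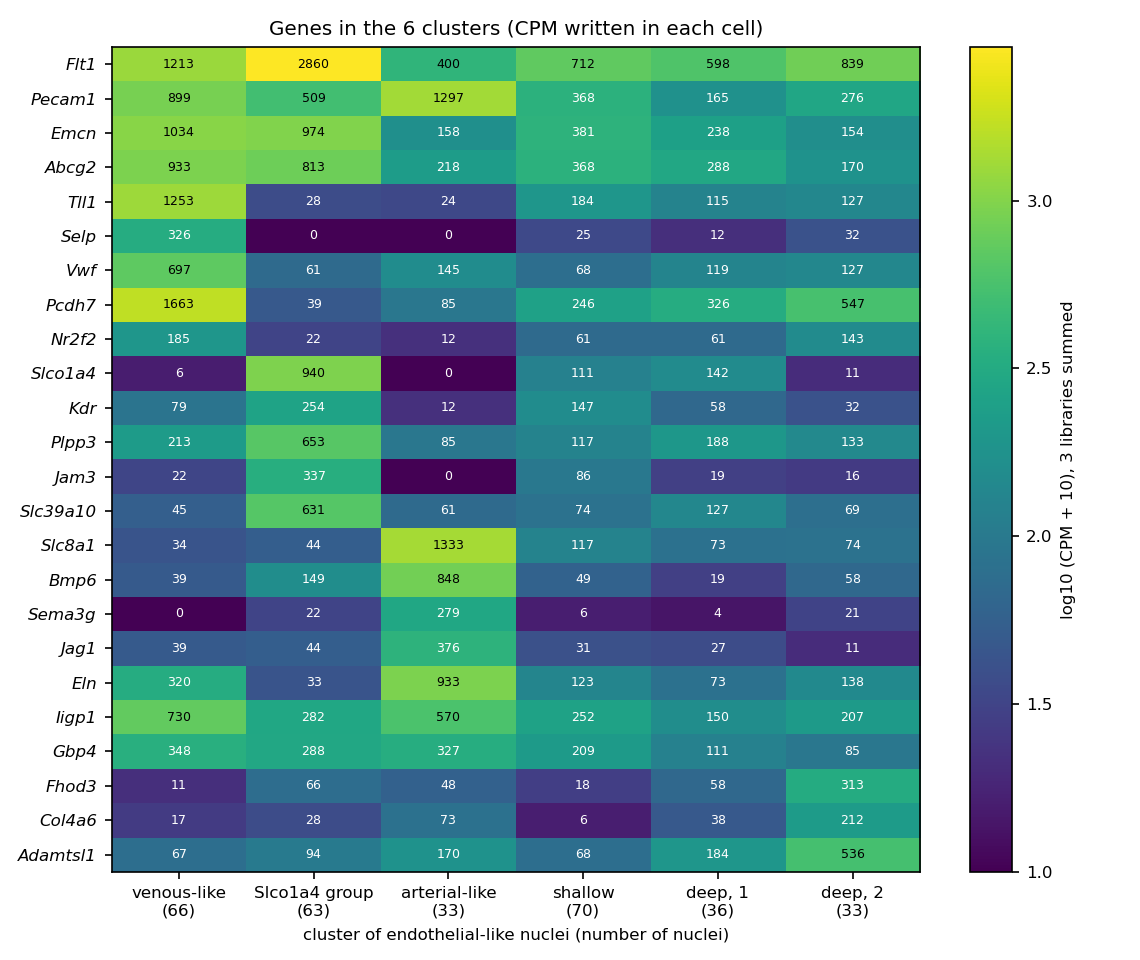
CPM (numbers) and log10 of CPM plus 10 (colour) of 24 genes in the 6 groups of endothelial-like nuclei, with the 3 libraries summed. Tll1, Selp, Vwf and Pcdh7 peak in the venous-like group, Slco1a4, Kdr and Jam3 in the Slco1a4 group, and Slc8a1, Bmp6, Sema3g and Jag1 in the arterial-like group.

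For comparisons between libraries, member UMIs were summed and given as scaled CPM. This is CPM divided by a size factor so that the typical gene has the same level in each library. All other nuclei had size factors of their own. Scaled CPM therefore compares libraries and does not put members and other nuclei on the same scale. Genes with a mean over both libraries of 50 CPM or more were compared, and a gene was counted as different when it was at least 1.5-fold apart after 10 scaled CPM were added, with a counting interval of the plain ratio that left out 1. By this rule 355 of 3603 genes (9.85%) were higher and 315 (8.74%) lower in scopolamine than in control members. In tamsulosin against scopolamine members, 298 of 3328 genes (8.95%) were higher and 161 (4.84%) lower. In tamsulosin against control members, 447 of 3459 genes (12.9%) were higher and 368 (10.6%) lower. These percentages are the background for the list counts below. Plain CPM shifted the median log2 ratio of all genes to -0.18 for scopolamine over control, -0.22 for tamsulosin over scopolamine and -0.39 for tamsulosin over control. It gave 230 genes higher and 520 lower in the first comparison, 189 and 452 in the second and 204 and 987 in the third. A gene that reaches the level filter only through its higher library had to differ, so list counts describe the compared genes and not the whole list.

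Venous markers were among the endothelial genes counted higher in scopolamine than in control members. Of 18 venous markers 9 were compared, 6 were counted higher and 0 lower, with a median log2 ratio of 0.81 beside -0.02 for all genes. Tll1 (chr8:64014931-64206271, minus strand, mm10) was at 327 (tamsulosin), 414 (scopolamine) and 68.8 (control) scaled CPM, 6.01-fold (3.6 to 10.7) higher in scopolamine than in control members. Vwf was at 170 (tamsulosin), 297 (scopolamine) and 99.0 (control) scaled CPM, and 3.0-fold (1.91 to 4.91) higher in scopolamine than in control. Selp was at 81.2 (tamsulosin), 81.9 (scopolamine) and 25.8 (control) scaled CPM. The control value of Selp rests on 6 UMIs, and the fold of 3.17 over it has an interval of 1.32 to 9.22. The others counted were Il1r1, the interleukin-1 receptor, Il6st, the shared receptor chain of the interleukin-6 family, and Slco2a1, the prostaglandin transporter, at 1.81-, 1.70- and 2.32-fold. The general venous factor Nr2f2 was at 97.4 (tamsulosin), 86.5 (scopolamine) and 77.5 (control) scaled CPM and was not counted.

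Within venous-like nuclei Tll1 was at 1049 (tamsulosin, 74 UMIs), 1572 (scopolamine, 140 UMIs) and 489 (control, 9 UMIs) plain CPM. Vwf within them was at 454 (tamsulosin, 32 UMIs), 887 (scopolamine, 79 UMIs) and 706 (control, 13 UMIs) plain CPM, so Vwf and Tll1 did not order the libraries alike. Among main cluster members alone 6 of 10 compared venous markers were counted higher in scopolamine than in control, with a median of 0.79. Of 28 compared endothelial markers outside the rule, 13 were counted higher and 0 lower in scopolamine than in control members, with a median of 0.62. The venous list and the endothelial list share Vwf and Slco2a1. Of 3 compared capillary markers 2 (Cav1 and Adgrf5) were counted higher and 0 lower, with a median of 0.79. Of 6 compared arterial markers 2 (Jag1 and Nebl) were counted higher and 0 lower, with a median of 0.45. Higher values were thus not particular to venous markers. How much of the venous difference goes with the general endothelial one was not tested.

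In tamsulosin against control members 4 of 7 compared venous markers were counted higher (Vwf, Il1r1, Tll1 and Slco2a1). Between tamsulosin and scopolamine members 0 of 9 were counted higher and 1, Vwf, lower, at a ratio of 0.574 (0.417 to 0.782), and in the main cluster alone 0 were counted either way. Both comparisons with control share the same 46 control members.

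Beside Tll1, the named genes of the scopolamine over control comparison included Pcdh7, another of the 10 leading genes of the venous-like group. Cysltr1, Eln and Wipf1, also given here, were not among those 10. Pcdh7 was at 592 (tamsulosin), 671 (scopolamine) and 138 (control) scaled CPM, 4.87-fold (3.38 to 7.26) higher in scopolamine than in control. Cysltr1, the receptor through which cysteinyl leukotrienes make venules leak, was at 62.2 (tamsulosin), 103 (scopolamine) and 4.30 (control) scaled CPM. Its control value is 1 UMI, which gives a ratio of 23.9 with an interval of 4.07 to 966. Cysltr1 was seen in 17 tamsulosin, 29 scopolamine and 1 control nuclei, and 33 of its 68 UMIs lay in the venous-like group. Eln, the elastin of arterial and larger vessel walls, was at 211 (tamsulosin), 274 (scopolamine) and 43.0 (control) scaled CPM, 6.36-fold (3.34 to 13.6) higher in scopolamine than in control. Wipf1, which binds the actin regulator WASP, was at 168 (tamsulosin), 225 (scopolamine) and 43.0 (control) scaled CPM. Tll1, Pcdh7, Eln and Wipf1 were counted in 15 of 15 alternative settings and Cysltr1 in 14. Here and below, adding 1 scaled CPM, a mean of at least 20 CPM or no filter on low counts cannot drop a counted gene. All 15 settings also reuse the same libraries, so these counts describe the processing and replace no replicate. Col4a6, Fhod3 and Adamtsl1, also among the 10 highest, were not counted in the main cluster alone, where their log2 ratios were 0.64, 0.41 and 0.38. These 3 genes had 40 of 65, 59 of 95 and 101 of 203 UMIs in the deep group with duct and myoepithelial markers.

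Most of the lowest genes of scopolamine against control came from single control nuclei. Bpifa2 had 155 UMIs in control members, of which 146 lay in 1 nucleus, and Amy1 had 165 of 176, Smr3a 48 of 51 and Scn3a 28 of 30 in 1 nucleus. Chst9 had 93 of 143 and Igkc 24 of 33 control UMIs in 1 nucleus. Bpifa2, Smr3a and Amy1 encode salivary-type secreted proteins and Igkc an antibody chain, which endothelium does not make. Genes spread over more control nuclei were Lars2, a mitochondrial leucyl-tRNA synthetase, seen in 40 of the 46, and Cmss1, seen in 38. Lars2 was at 214 (tamsulosin), 196 (scopolamine) and 753 (control) scaled CPM in members, and at 273 (tamsulosin), 219 (scopolamine) and 459 (control) in all other nuclei. Cmss1 was at 143 (tamsulosin), 204 (scopolamine) and 581 (control) scaled CPM in members and at 175 (tamsulosin), 205 (scopolamine) and 437 (control) in the others. Both genes were thus lower in the dry eye libraries than in control outside the endothelium too. Ivns1abp, which binds actin and splicing factors, was at 135 (tamsulosin), 133 (scopolamine) and 331 (control) scaled CPM in members, and Pitpna, a phospholipid transfer protein, at 106 (tamsulosin), 74.8 (scopolamine) and 194 (control).

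**Figure D4:**
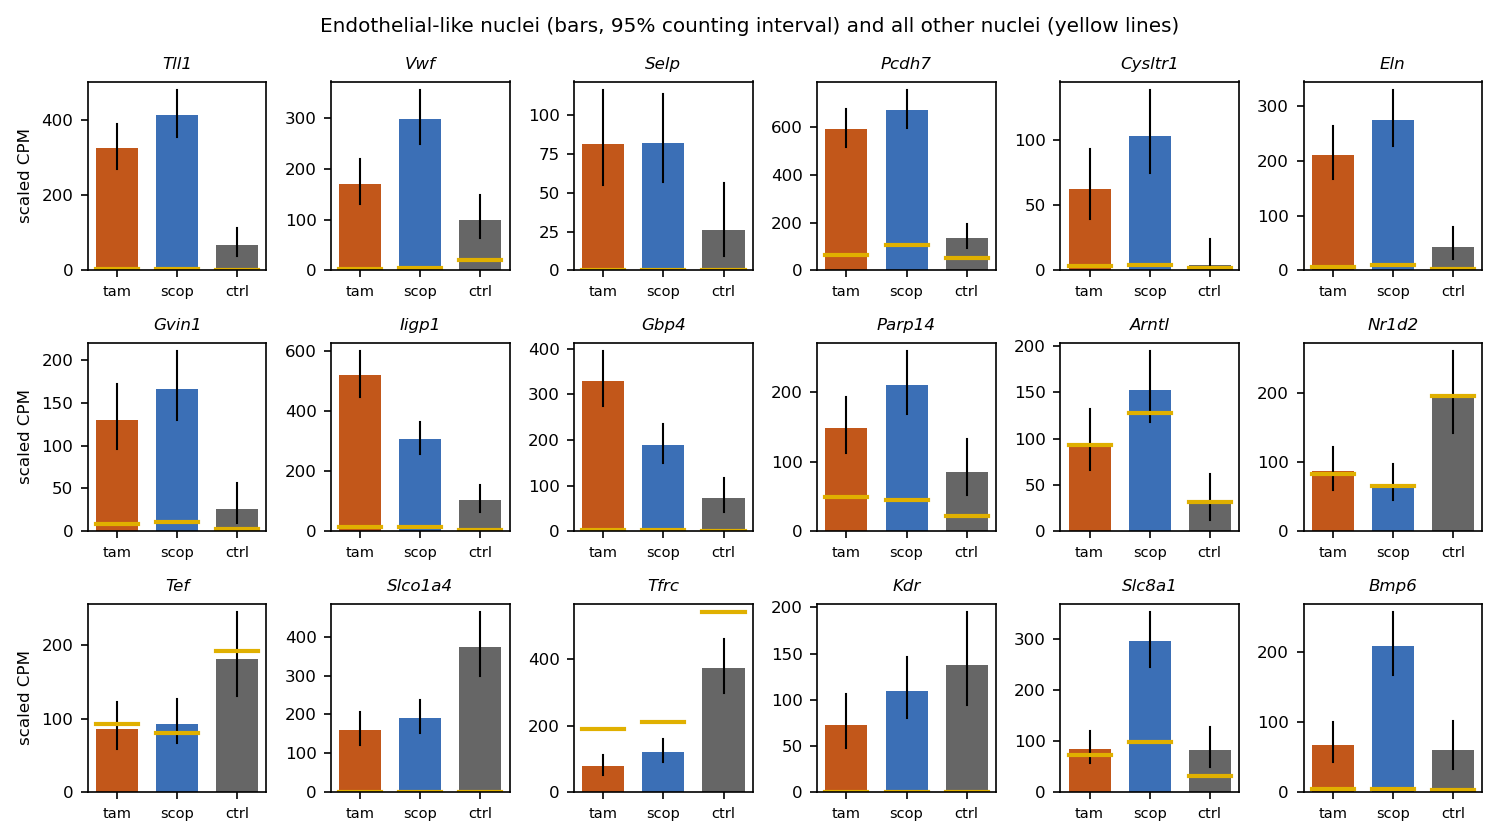
Scaled CPM (bars, with exact Poisson 95% counting intervals as lines) of 18 genes in endothelial-like nuclei of the tamsulosin, scopolamine and control libraries, with all other kept nuclei as yellow lines. The yellow lines use the size factors of the other nuclei. Tll1, Pcdh7, Eln and Gvin1 are high in both dry eye libraries, Iigp1 and Gbp4 are highest in tamsulosin (519 and 330), and Arntl, Nr1d2 and Tef follow the level of the other nuclei.

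Some genes induced by interferon were higher in members of both dry eye libraries, and the GTPase genes Iigp1 and Gbp4 were highest with tamsulosin. Iigp1, a GTPase that attacks the vacuoles of intracellular parasites, was at 519 (tamsulosin), 306 (scopolamine) and 103 (control) scaled CPM. It was 1.70-fold (1.35 to 2.13) higher in tamsulosin than in scopolamine members and 5.03-fold (3.28 to 8.04) higher in tamsulosin than in control members. Gbp4, a guanylate-binding protein (chr5:105115767-105139586, minus strand, mm10), was at 330 (tamsulosin), 189 (scopolamine) and 73.1 (control) scaled CPM, 1.74-fold (1.30 to 2.34) higher in tamsulosin than in scopolamine members. The groups thus stood in the same order for both genes. In all other nuclei Iigp1 was at 15.9 (tamsulosin), 14.4 (scopolamine) and 4.29 (control) scaled CPM and Gbp4 at 4.01 (tamsulosin), 3.35 (scopolamine) and 1.49 (control), far below the members' values. Main cluster members alone gave 727 (tamsulosin), 366 (scopolamine) and 146 (control) scaled CPM for Iigp1 and 490 (tamsulosin), 229 (scopolamine) and 103 (control) for Gbp4.

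The order of Iigp1 held within vessel groups, on few control UMIs. In the venous-like group it was at 851 (tamsulosin, 60 UMIs), 674 (scopolamine, 60 UMIs) and 543 (control, 10 UMIs) plain CPM. In the Slco1a4 group it was at 430 (tamsulosin, 28 UMIs), 291 (scopolamine, 17 UMIs) and 105 (control, 6 UMIs) plain CPM, and in the arterial-like group at 999 (tamsulosin, 28 UMIs), 357 (scopolamine, 17 UMIs) and 294 (control, 2 UMIs). Gbp4 had 30 (tamsulosin), 32 (scopolamine) and 0 (control) UMIs in the venous-like group, 24 (tamsulosin), 16 (scopolamine) and 12 (control) in the Slco1a4 group and 12 (tamsulosin), 14 (scopolamine) and 1 (control) in the arterial-like group.

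Of the 26 interferon genes 11 were compared between scopolamine and control members, with 3 counted higher (Iigp1, Gbp4 and Parp14) and 0 lower, and a median log2 ratio of 0.64. Between tamsulosin and scopolamine members 12 were compared, 2 were counted higher (Iigp1 and Gbp4) and 0 lower, and the median was 0.07, near the -0.01 of all genes. Between tamsulosin and control members 5 of 9 were counted higher, adding Gbp7 and Oasl2, with a median of 0.73. In the main cluster alone 5 of 11 were counted higher in tamsulosin than in control members and 1, Rsad2, lower. Gbp3 was counted higher there and Oasl2 was not. The main cluster gave 4 of 12 higher in scopolamine than in control and 2 of 12 higher in tamsulosin than in scopolamine, with 0 lower in both. Parp14, an interferon-induced poly-ADP-ribose polymerase, ordered the libraries otherwise, at 149 (tamsulosin), 210 (scopolamine) and 86.1 (control) scaled CPM. Gvin1, a very large interferon-induced GTPase, was at 130 (tamsulosin), 166 (scopolamine) and 25.8 (control) scaled CPM, and was 6.43-fold (2.81 to 18.1) higher in scopolamine than in control. Gbp, Gvin and immunity-related GTPase genes have near-identical copies, and reads shared between copies may have been assigned or dropped unevenly. Fibroblast-marked nuclei had log2 ratios of 1.21 for Iigp1 and 1.23 for Gbp4 in tamsulosin over scopolamine, and macrophage-marked nuclei had -0.30 and 0.65.

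Genes of MHC class I, which presents peptides to T cells, were counted higher in part in tamsulosin members. H2-K1 was at 341 (tamsulosin), 269 (scopolamine) and 176 (control) scaled CPM and H2-D1 at 130 (tamsulosin), 79.5 (scopolamine) and 47.3 (control). Nlrc5, the transactivator of these genes, was at 149 (tamsulosin), 77.2 (scopolamine) and 60.2 (control) scaled CPM, 1.93-fold (1.23 to 3.06) higher in tamsulosin than in scopolamine members. Of 15 MHC genes, 3 of 7 compared were counted higher in tamsulosin than in scopolamine members and 3 of 5 higher in tamsulosin than in control members, with 0 lower in both. H2-K1 was not counted between tamsulosin and scopolamine members. In the main cluster alone 2 of 8 (H2-T23 and Nlrc5) were counted higher in tamsulosin than in scopolamine members, and H2-D1, at 1.75-fold (0.978 to 3.14) there, was not. In all other nuclei H2-K1 was at 214 (tamsulosin), 101 (scopolamine) and 71.4 (control) scaled CPM, so the same order was present outside the endothelium.

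Of 12 compared transcription factors that maintain endothelium, 6 were counted higher in scopolamine than in control members and 0 lower, with a median log2 ratio of 0.55. Erg, the ETS factor most restricted to endothelium, was at 146 (tamsulosin), 175 (scopolamine) and 77.5 (control) scaled CPM. Fli1, its close relative, was at 457 (tamsulosin), 667 (scopolamine) and 237 (control) scaled CPM, 2.82-fold (2.10 to 3.83) higher in scopolamine than in control. Elk3, an ETS repressor, was at 195 (tamsulosin), 393 (scopolamine) and 120 (control) scaled CPM. In the main cluster alone 4 of 12 were counted (Erg, Fli1, Elk3 and Mecom). Sox17, an arterial factor, differed from these: it was at 108 (tamsulosin), 60.8 (scopolamine) and 47.3 (control) scaled CPM and 1.78-fold (1.06 to 3.04) higher in tamsulosin than in scopolamine members.

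Of 22 junction genes, 15 were compared between scopolamine and control members, 4 were counted higher and 0 lower, with a median of 0.14. Pecam1, an adhesion molecule of the endothelial border and a gene of the rule, was at 511 (tamsulosin), 613 (scopolamine) and 271 (control) scaled CPM. Jam2, a junctional adhesion molecule, was at 200 (tamsulosin), 262 (scopolamine) and 90.4 (control) scaled CPM, 2.90-fold (1.81 to 4.87) higher in scopolamine than in control. Cdh5, the main adhesion molecule of endothelial junctions, was at 97.4 (tamsulosin), 93.5 (scopolamine) and 77.5 (control) scaled CPM and was not counted. Cldn5, the tight junction claudin of endothelium, had 1 (tamsulosin), 22 (scopolamine) and 2 (control) UMIs, too few for a comparison at the level filter. Among vasoactive genes 4 of 6 compared were counted higher in scopolamine than in control members (Nos3, Cav1, Edn1 and Calcrl). Calcrl, the receptor for adrenomedullin and calcitonin gene-related peptide, was at 319 (tamsulosin), 297 (scopolamine) and 155 (control) scaled CPM. Nos3 and Edn1, which make nitric oxide and the vasoconstrictor endothelin, rest on 7 and 8 control UMIs and were not counted in the main cluster alone.

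Transporters moved in both directions. Slco1a4 (chr6:141805440-141856199, minus strand, mm10) was lower in both dry eye libraries, at 160 (tamsulosin), 192 (scopolamine) and 374 (control) scaled CPM, with a ratio of 0.512 (0.374 to 0.701) for scopolamine over control. Slco1a4 was seen in 18.4% (tamsulosin), 16.2% (scopolamine) and 37.0% (control) of members, against 0.0673% (tamsulosin), 0.182% (scopolamine) and 0.238% (control) of all other nuclei. Within the Slco1a4 group it was at 553 (tamsulosin, 36 UMIs), 1063 (scopolamine, 62 UMIs) and 1255 (control, 72 UMIs) plain CPM. Within the group scopolamine and control thus lay closer together than over all members, and tamsulosin was lowest. The main cluster gave a like ratio of 0.466 (0.336 to 0.644) for scopolamine over control. Mfsd2a, the lipid transporter of barrier capillaries, had 5 (tamsulosin), 4 (scopolamine) and 15 (control) UMIs.

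Tfrc, the transferrin receptor, was at 78.4 (tamsulosin), 122 (scopolamine) and 374 (control) scaled CPM in members, a ratio of 0.325 (0.226 to 0.463) for scopolamine over control. In all other nuclei Tfrc was at 190 (tamsulosin), 213 (scopolamine) and 541 (control) scaled CPM, so it was lower than in control outside the endothelium too, and its level in members lay below that of the rest. Abcg2, Slco2a1 and Slc6a6, a taurine transporter, were counted higher in scopolamine than in control members at 1.54-, 2.32- and 2.92-fold. In all, 3 of 10 compared barrier transporters were counted higher and 2 lower between scopolamine and control, and 4 of 9 higher and 2 lower between tamsulosin and control.

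Growth factor receptors of vessels did not move as a group. Of 14 genes of the VEGF list 8 were compared between scopolamine and control, with 1, Nrp2, counted higher and 0 lower, and a median of 0.03. Nrp2, a semaphorin and VEGF-C co-receptor of veins and lymphatics, was at 189 (tamsulosin), 323 (scopolamine) and 116 (control) scaled CPM. Flt1 was at 1388 (tamsulosin), 1045 (scopolamine) and 1016 (control) scaled CPM and was not counted in any comparison. Kdr, the main signalling VEGF receptor, was at 73.0 (tamsulosin), 110 (scopolamine) and 138 (control) scaled CPM, and the ratio of tamsulosin over control was 0.530 (0.306 to 0.914). Tek, the angiopoietin receptor, was at 281 (tamsulosin), 330 (scopolamine) and 125 (control) scaled CPM, 2.64-fold (1.76 to 4.09) higher in scopolamine and 2.25-fold (1.48 to 3.53) higher in tamsulosin than in control members. Pecam1, Emcn, Ptprb, Kdr, Tek and Flt1 chose the members, so their levels are descriptions.

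The genes that fell in tamsulosin relative to scopolamine members were led by genes of the arterial-like group. Slc8a1 (chr17:81373105-81738377, minus strand, mm10) was at 83.9 (tamsulosin), 295 (scopolamine) and 81.8 (control) scaled CPM, with a ratio of 0.285 (0.186 to 0.424) for tamsulosin over scopolamine. Bmp6 was at 67.6 (tamsulosin), 208 (scopolamine) and 60.2 (control) scaled CPM, with a ratio of 0.325 (0.20 to 0.511), and Col5a2, a fibrillar collagen, at 59.5 (tamsulosin), 152 (scopolamine) and 60.2 (control). These genes were high in scopolamine members and low in both of the others. Within arterial-like nuclei Slc8a1 was at 499 (tamsulosin, 14 UMIs), 1657 (scopolamine, 79 UMIs) and 2496 (control, 17 UMIs) plain CPM, the control value coming from 3 nuclei. Slc8a1 and Bmp6 were counted in 15 of 15 alternative settings. In the main cluster alone the ratio of tamsulosin over scopolamine was 0.249 (0.137 to 0.424) for Slc8a1. For Bmp6 it was 0.519 (0.317 to 0.824), a smaller difference than over all members. The arterial marker list as a whole did not follow: 7 of 18 were compared between tamsulosin and scopolamine, with 1 (Sox17) counted higher and 1 (Jag1) lower.

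Plpp3, a lipid phosphatase that clears lysophosphatidic acid at the vessel wall, was at 149 (tamsulosin), 346 (scopolamine) and 228 (control) scaled CPM. Angpt1, the ligand of Tek that mural and stromal cells secrete, was at 46.0 (tamsulosin), 119 (scopolamine) and 129 (control) scaled CPM in members, against 85.0 (tamsulosin), 94.2 (scopolamine) and 135 (control) in all other nuclei. Its level in members was thus near that of the rest in the scopolamine and control libraries and below it in tamsulosin. Others among the 10 lowest were Tspan18, Slc43a2, Adamts10, Mgat5 and Myrip, with 9 to 44 UMIs in tamsulosin members.

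Genes counted higher in tamsulosin than in scopolamine members were set beside the other nuclei. Of the 298 counted, 192 were also at least 1.5-fold higher in all other nuclei, and 138 had a lower CPM in tamsulosin members than in the other tamsulosin nuclei. No share over all 3328 compared genes is given for either count, so neither has a background. A CPM below that of the other nuclei in the higher library was not particular to these genes. It held for 197 of the 315 genes lower in scopolamine and 252 of the 368 lower in tamsulosin than in control. It held for 45 of the 355 and 118 of the 447 genes higher in these comparisons. Of the 161 genes lower in tamsulosin than in scopolamine it held for 40. Wfdc18, a secreted protease inhibitor of the WAP family, was at 3744 (tamsulosin), 257 (scopolamine) and 138 (control) scaled CPM in members, and at 3933 (tamsulosin), 338 (scopolamine) and 97.6 (control) in all other nuclei. In plain CPM its tamsulosin level in members was at least that of the other nuclei, as the naming rule requires. Wfdc18 was found in all 125 tamsulosin members. Tmem176b was at 160 (tamsulosin), 23.4 (scopolamine) and 4.30 (control) scaled CPM in members and at 158 (tamsulosin), 16.9 (scopolamine) and 4.92 (control) in the others. Chia1, an acidic chitinase, had 61 tamsulosin UMIs of which 47 lay in 1 nucleus, and 0 in scopolamine members. Whether free RNA gives these UMIs in members was not tested. Dclk1, Car12, Ndrg3, Sema3d and Trpm6 did not pass the level filter in the main cluster alone, where they had 6 to 18 UMIs in tamsulosin and 4 to 11 in scopolamine members, and their log2 ratios there were 2.16, 1.42, 1.24, 0.65 and 0.03. Car12, Trpm6 and Adgrl3 had 113 of 146, 102 of 138 and 138 of 209 UMIs in the deep group with duct and myoepithelial markers. Unlike Car12 and Trpm6, Adgrl3 was counted in the main cluster alone too, at 4.37-fold (2.05 to 10.1) on 27 tamsulosin and 10 scopolamine UMIs. Serf2 was at 119 (tamsulosin), 23.4 (scopolamine) and 25.8 (control) scaled CPM in members and at 108 (tamsulosin) in the others.

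Tacr1 (chr6:82402334-82560104, plus strand, mm10), the receptor for substance P through which sensory nerves dilate and open vessels, was highest with tamsulosin in members and not in all other nuclei. It had 55 UMIs in 18 tamsulosin members, 28 UMIs in 15 scopolamine members and 0 UMIs in control members, where 3 UMIs would be 12.9 scaled CPM. Its level was 149 (tamsulosin) and 65.5 (scopolamine) scaled CPM in members, against 5.41 (tamsulosin), 8.63 (scopolamine) and 5.74 (control) in all other nuclei. Of its 83 UMIs 43 lay in the venous-like group and 24 in the deep group with duct and myoepithelial markers. Tacr1 was counted higher in tamsulosin than in control members in 15 of 15 alternative settings. The other genes among the 5 highest of tamsulosin over control were Wfdc18, Tmem176b, the antisense transcript Sorbs2os at 198 (tamsulosin), 95.9 (scopolamine) and 25.8 (control) scaled CPM, and Nrg1, a ligand of ERBB receptors, which was not counted in the main cluster. Among the 5 lowest, beside Scn3a, Cmss1 and Lars2, were Ttc7b at 35.2 (tamsulosin), 81.9 (scopolamine) and 142 (control) scaled CPM and Eda, a TNF-family ligand, at 46.0 (tamsulosin), 74.8 (scopolamine) and 172 (control).

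Receptors for the study's drugs were looked at one by one. Adra1a, an alpha-1 receptor, the class that tamsulosin blocks, was at 89.3 (tamsulosin), 88.9 (scopolamine) and 176 (control) scaled CPM in members and at 137 (tamsulosin), 155 (scopolamine) and 230 (control) in all other nuclei. Its level in members lay below that of the rest in each library, and whether free RNA gives its UMIs in members was not tested. Of its 112 UMIs 63 lay in the deep group of 36 nuclei, and the ratio of scopolamine over control was 0.504 (0.315 to 0.803). Adra1b and Adra1d, the other alpha-1 receptors, had at most 2 UMIs in any library, and Adra2a, Adra2b, Adra2c, Adrb1 and Adrb3 at most 3. Chrm3, the muscarinic receptor of the secretory epithelium, was likewise below the rest, at 2178 (tamsulosin), 2126 (scopolamine) and 2328 (control) scaled CPM in members and 3083 (tamsulosin), 3346 (scopolamine) and 2907 (control) in the others. Chrm2, the muscarinic receptor of heart and smooth muscle, had 6 (tamsulosin), 11 (scopolamine) and 1 (control) UMIs, at 16.2 (tamsulosin), 25.7 (scopolamine) and 4.30 (control) scaled CPM against at most 0.240 in all other nuclei. Chrm1, Chrm4, Chrm5 and Vipr2 had at most 3 UMIs in any library and Vipr1 had 7 (tamsulosin), 4 (scopolamine) and 1 (control).

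Of the circadian clock genes, Arntl, Nr1d2 and Tef differed between the dry eye libraries and control in endothelial-like nuclei and in all other nuclei. Arntl, the BMAL1 activator, was at 94.7 (tamsulosin), 152 (scopolamine) and 30.1 (control) scaled CPM in members and at 92.7 (tamsulosin), 128 (scopolamine) and 31.7 (control) in the others. Its partner gene Npas2 had 24 (tamsulosin), 30 (scopolamine) and 1 (control) UMIs. Nr1d2, a REV-ERB repressor of Arntl, was at 86.6 (tamsulosin), 67.8 (scopolamine) and 194 (control) scaled CPM, with 83.2 (tamsulosin), 65.6 (scopolamine) and 194 (control) in the others. Tef, an output factor of the clock, was at 86.6 (tamsulosin), 93.5 (scopolamine) and 181 (control) scaled CPM, with 93.3 (tamsulosin), 80.7 (scopolamine) and 192 (control) in the others. Of these 3 genes Arntl was therefore lower, and Nr1d2 and Tef higher, in control than in dry eye members. Of 20 clock genes, 5 were compared between scopolamine and control, with 1 higher and 2 lower. Clock and Rora were at 268 and 779 (tamsulosin), 232 and 641 (scopolamine) and 219 and 602 (control) scaled CPM and were not counted. The hour of collection and the treatment cannot be told apart here. Nr1d1, Per1, Per2, Per3, Cry1, Cry2, Hlf, Nfil3, Ciart, Bhlhe40 and Bhlhe41 had between 0 and 25 UMIs in any library, and Dbp and Rorb had 0.

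**Figure D5:**
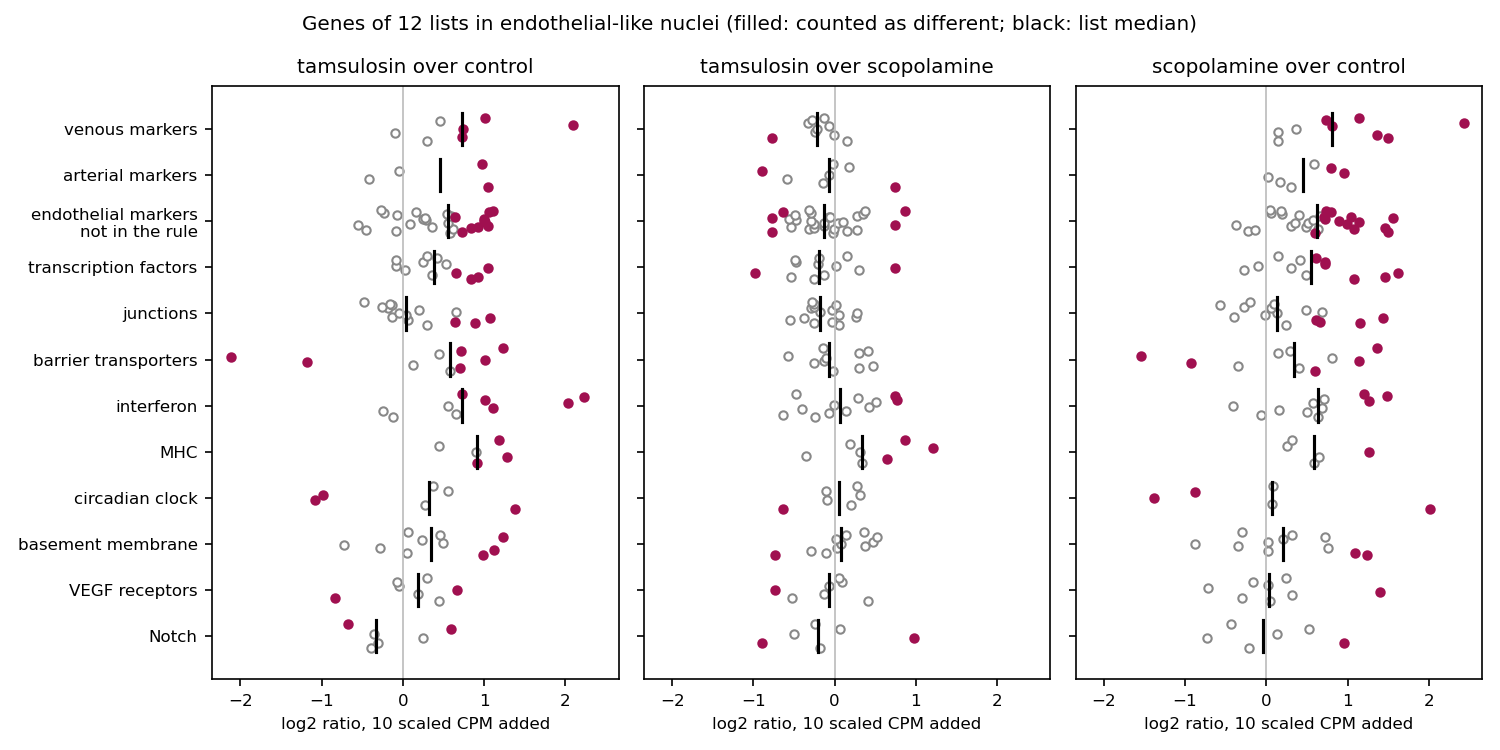
Log2 ratios (10 scaled CPM added) of the compared genes of 12 lists in endothelial-like nuclei for tamsulosin over control, tamsulosin over scopolamine and scopolamine over control. Filled points are genes counted as different, open points are not, and black lines are list medians. Venous markers (median 0.81) and interferon genes (0.64) lie to the right of 0 in scopolamine over control. So do endothelial markers outside the rule (0.62), MHC genes (0.58) and transcription factors (0.55), among others. Most lists centre near 0 in tamsulosin over scopolamine.

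Of 20 basement membrane genes 11 were compared between scopolamine and control members, with 2 counted higher, the collagen IV chains Col4a1 and Col4a2 at 2.72-fold (1.31 to 6.32) and 2.39-fold (1.19 to 5.33), and 0 lower. In the main cluster alone 12 were compared, with 2 counted higher (Col4a1 and Col15a1) and 2 lower (Sparc and Itgb1). Between tamsulosin and control members 3 of 10 were counted higher (Col4a2, the laminin chain Lamc1 and the fibronectin receptor chain Itga5) and 0 lower. Of 6 compared shear stress genes 3 were counted higher in scopolamine than in control members (Nos3, Mef2c and Pecam1, a gene of the rule) and 0 lower. In the main cluster alone 1 of 7, Pecam1, was counted higher and 0 lower. Of 4 compared hypoxia genes 2 were counted higher in scopolamine than in control members, the hypoxia-inducible factors Hif1a and Epas1, and 0 lower. In the main cluster alone 1 of 3, Hif1a, was counted higher and 0 lower. Of 4 compared apoptosis genes 2 were counted higher in tamsulosin than in control members, the survival genes Bcl2 and Bcl2l1, and 0 lower, and in the main cluster alone 0 of 4 were counted. Of 16 glucocorticoid response genes 4 were compared in each comparison and 0 were counted. Of 23 cell cycle genes 0 were compared between scopolamine and control and 1 in each comparison with tamsulosin, with 0 counted. Too few passed the level filter to describe division. Of 20 immediate early genes 1 was compared, with 0 counted.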

How the data were processed

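Values are raw UMI counts, which the authors deposited as 1 matrix per library. Cell Ranger 5.0.0 and the build mm10 are named, per the submitters' processing notes. The annotation release and the treatment of intronic reads are not given in the sources used here. All 29599 deposited barcodes of 3 libraries were read, and those with at least 500 UMIs, 300 genes and at most 5% mitochondrial UMIs were kept. The lowest kept barcode had 1534 (tamsulosin), 967 (scopolamine) and 1492 (control) UMIs. The libraries thus began at unlike depths, and the shares of endothelial-like nuclei are of kept nuclei with unlike lower limits. Deposited UMIs totalled 57969348 (tamsulosin), 35237256 (scopolamine) and 33500727 (control). No doublet caller was run and no free RNA was removed. Groups came from the labels, and the members and gene lists were chosen with earlier results of these data known.

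Member UMIs were summed per library and divided by a size factor (0.864 tamsulosin, 1.01 scopolamine, 1.14 control), the median ratio to the geometric mean over libraries. All other nuclei were scaled by factors found from their own sums (0.805 tamsulosin, 0.960 scopolamine, 1.29 control). Ratios carry exact conditional binomial 95% intervals, shares exact Clopper-Pearson and levels exact Poisson intervals, all for counting error only. Free RNA and shared depth are not covered. Named genes were the 20 leading genes, the 10 highest and 10 lowest counted log2 ratios of scopolamine over control and of tamsulosin over scopolamine and the 5 and 5 of tamsulosin over control (at least 30 UMIs and 50 CPM in the higher library, and at least the CPM of the other nuclei), counted genes of the lists, all drug receptors, clock genes and genes of the rule. Genes outside this rule that are given as context (such as Cldn5, Mfsd2a, Prox1, Rgs5 and Nr2f2) were chosen after their values were seen. Members were clustered by the Leiden method on log counts centred within library (1500 variable genes, 20 components, 15 neighbours, resolution 0.6). Promoter sequences are RefSeq's. Values of a few listed genes are not reported here. The counting of genes as different was run on simulated Poisson counts, drawn from a pooled mean per gene with changes set in some genes. These counts had no spread between nuclei or libraries beyond counting error. They therefore cannot show how such spread affects the genes counted, and their outcome is not reported here. Clustering used scikit-learn 1.9.0 and igraph 0.11.9, intervals scipy 1.17.1, and tables and plots pandas 2.3.3, numpy 2.4.6 and matplotlib 3.10.9, in Python 3.11.15.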

Additional observations from a re-analysis of the deposited data

How the results depend on the processing

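No paired analysis was possible because each group is 1 library, and no replicate could be left out. Thinning each nucleus to 1000 UMIs gave shares of 0.699% (tamsulosin), 1.13% (scopolamine) and 0.417% (control). Requiring 5 UMIs from 3 genes and 0.5% gave 0.433% (tamsulosin), 0.650% (scopolamine) and 0.306% (control), and a minimum of 1600 UMIs 1.91% in scopolamine. Main cluster members alone, an alternative chosen after seeing the data, gave 0.749% (tamsulosin), 1.05% (scopolamine) and 0.50% (control).

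Counts of genes that moved by over 1.5 times were these. For scopolamine over control, thinning gave 118 higher and 122 lower, the stricter marker rule 216 higher, plain CPM 230 higher and 520 lower, and no filter on low counts 572 higher and 480 lower. For tamsulosin over scopolamine, thinning gave 166 and 98, plain CPM 189 and 452, a mean of 20 CPM 479 and 243, no filter 610 and 329, and totals without secretory transcripts 268 lower. For tamsulosin over control, thinning gave 187 and 129, the stricter rule 279 higher, plain CPM 204 and 987, and no filter 800 higher. Thinning leaves fewer UMIs and the looser filters compare more genes by construction, and the cause of the other moves was not tested. Restricting to the main cluster kept 221 of the 355 genes higher and 188 of the 315 lower in scopolamine over control, and 55 of the 161 lower in tamsulosin over scopolamine. Leaving out the tenth of members with the most UMIs gave 257 higher and 255 lower in scopolamine over control. This kept 209 of the 355 and 157 of the 315, and 101 of the 161 lower in tamsulosin over scopolamine.

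Some named log2 ratios changed sign. With thinning, Adamtsl1 was at -0.0032 and Chst9 at 0.0896 in scopolamine over control, Tspan18 at 0.0422 in tamsulosin over scopolamine and Nrg1 at -0.66 in tamsulosin over control. In scopolamine over control, Amy1 was at 0.0055 in the main cluster and Chst9 at 1.81 without Flt1 in the rule. The venous-like, Slco1a4 and arterial-like groups kept 100%, 98.4% and 100% of their nuclei together at resolution 0.3, where the arterial-like group joined the shallow one, and 95.5%, 88.9% and 93.9% without centring. Without centring, 31 of the 33 arterial-like nuclei lay in a cluster of 64, made of 38 tamsulosin, 25 scopolamine and 1 control nuclei. The group was thus not separate there, and the shallow group kept only 42.9% of its nuclei together. Depth limits the control values most: 1 UMI is 4.30 scaled CPM there, against 2.71 in tamsulosin and 2.34 in scopolamine members.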

Other observations

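Ebf1, a transcription factor best known from B cells and also used in adipose and stromal lineages, was at 1693 (tamsulosin), 1883 (scopolamine) and 852 (control) scaled CPM in members, against 101 (tamsulosin), 146 (scopolamine) and 66.4 (control) in all other nuclei, and was counted higher in scopolamine than in control members at 2.21-fold (1.89 to 2.59). Ebf1 was also high in fibroblast-marked nuclei, at 1911 (tamsulosin), 2103 (scopolamine) and 2689 (control) plain CPM, against 1464 (tamsulosin), 1907 (scopolamine) and 973 (control) plain CPM in members. Guidance genes were counted higher in scopolamine than in control members in 4 of 10 compared, with 0 lower: Plxna4, Sema6a, Epha4 and Nrp2, receptors of semaphorins and ephrins or, for Sema6a, a membrane semaphorin. Epha4 was at 127 (tamsulosin), 154 (scopolamine) and 64.5 (control) scaled CPM. Robo1, a receptor for Slit proteins, was at 181 (tamsulosin), 56.1 (scopolamine) and 25.8 (control) scaled CPM in members and at 188 (tamsulosin), 91.0 (scopolamine) and 44.0 (control) in the others, which have their own size factors.

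Lymphatic genes were sparse. Reln, which lymphatic endothelium secretes, was at 21.6 (tamsulosin), 77.2 (scopolamine) and 125 (control) scaled CPM, and Mmrn1, a lymphatic multimerin, had 0 (tamsulosin), 10 (scopolamine) and 5 (control) UMIs. Among Notch genes 1 of 6 compared, Jag1, was counted higher in scopolamine than in control members, at 40.6 (tamsulosin), 84.2 (scopolamine) and 38.7 (control) scaled CPM. Tgfbr3, the TGF beta co-receptor betaglycan, was at 295 (tamsulosin), 318 (scopolamine) and 181 (control) scaled CPM, and Bmpr1a, a type I BMP receptor, was lower at 176 (tamsulosin), 175 (scopolamine) and 284 (control), below the 327 (tamsulosin), 340.1 (scopolamine) and 372 (control) of all other nuclei.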
